A study of Mus musculus with 2 samples.

Results

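The 10 genes described here are Fos, Fosb, Jun, Junb, Jund, Egr1, Ier2, Dusp1, Klf2 and Klf6, taken by gene symbol from the 32285 genes counted in both libraries, where all 10 were found. They are AP-1 subunits and immediate early genes. The 5 FOS and JUN proteins among them pair into AP-1, a transcription factor that binds DNA as a dimer. Immediate early genes are switched on from existing proteins within minutes of a growth factor, cytokine or stress signal that travels through MAP kinases, and several of them are also induced when a tissue is dissociated. In blood the same genes have stage-specific uses, as KLF2 and KLF6 are present in unstimulated myeloid cells and JUNB restrains the output of stem cells.

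The material was mouse bone marrow labelled CD45.2+ Kit+, sampled 10 weeks after transplantation, and it was profiled with 10x Genomics 3′ single-cell chemistry and antibody tags (CITE-seq). There was 1 control library and 1 library labelled Utx-deleted. The labels give no allele, Cre driver, strain, sex or number of animals, and the host's remaining cells are not described. With 1 library in each group no test was made, and each difference below is a difference between these 2 libraries. Kdm6a, the gene that encodes UTX, stood at 110 CPM (UMIs of a gene per 1e+06 UMIs) in the control library and 103 CPM in the other, so its 3′ counts do not show a loss, the labels do not say which part was deleted, and the second group is called the library labelled Utx-deleted throughout.

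After filtering, 7011 control cells were used, at a median depth of 12367 UMIs (unique molecular identifiers). The library labelled Utx-deleted gave 7206 cells at 11816.5 UMIs. The libraries shared 17 barcodes, 13 of them among the kept cells. Each library also carried 2 hashtags, antibody tags that mark cell suspensions before pooling. The labels do not say what a hashtag marks, or that hashtag 1 of a library corresponds to hashtag 1 of the other. Hashtag values are therefore given as the spread inside a library and are not replicates. Intervals are exact 95% intervals and cover counting error only.

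Cells were placed by marker UMIs into gates that follow neutrophil development, and no member was used as a marker. The stem-cell gate (Hlf and Mecom) held 264 control cells, and 59 in the library labelled Utx-deleted. The Elane gate of neutrophil progenitors held 529 and 631 cells, and the Fcnb-high gate of early granule-forming cells 341 and 99. Cells rich in the granule genes Ltf, Camp and Ngp were divided into a cycling gate of 1585 cells in each library, a post-mitotic gate of 1869 and 2418 cells, and a late-neutrophil gate of 1363 and 1444 cells marked by Retnlg, Mmp8 and Cxcr2. A monocyte-progenitor gate (F13a1, Irf8 and Ly86) held 250 and 590 cells. These 7 gates had at least 50 cells in both libraries. In the late-neutrophil gate the CD117 (Kit) tag had a median of 13 UMIs per cell in the control library and 8 in the other, against 201.5 and 230 in the stem-cell gate, so its cells carried little of the protein named in the label.

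The members lie on several chromosomes of GRCm38 in the GENCODE M21 annotation. Fos (ENSMUSG00000021250) is on chromosome 12 from 85473890 to 85477273, Jun (ENSMUSG00000052684) on chromosome 4 from 95049034 to 95052222, and Dusp1 (ENSMUSG00000024190) on chromosome 17 from 26505590 to 26562128. Junb (84974484 to 84978718), Jund (70698949 to 70700616), Ier2 (84661331 to 84662852) and Klf2 (72319033 to 72321656) are all on chromosome 8. Fosb is on chromosome 7 from 19302696 to 19310051 and Klf6 on chromosome 13 from 5861482 to 5870394.

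Promoters are shown for Fos and Dusp1, whose levels moved together between the libraries, and for Jun, whose level moved separately from theirs. The sequences are the 250 bases before the gene start in RefSeq on GRCm38.p6, read 5′ to 3′ on the strand of the gene. They lie at chr12:85473640-85473889 (plus strand) for Fos, chr17:26508473-26508722 (minus strand) for Dusp1 and chr4:95052223-95052472 (minus strand) for Jun, and the Dusp1 window lies inside the longer span that GENCODE gives that gene. Capitals mark matches, on either strand, to the cAMP response element TGACGTCA, its half-site TGACG, the AP-1 element TGANTCA, the CCAAT box, the TATA box TATAAA and the GC box GGGCGG.
Fos: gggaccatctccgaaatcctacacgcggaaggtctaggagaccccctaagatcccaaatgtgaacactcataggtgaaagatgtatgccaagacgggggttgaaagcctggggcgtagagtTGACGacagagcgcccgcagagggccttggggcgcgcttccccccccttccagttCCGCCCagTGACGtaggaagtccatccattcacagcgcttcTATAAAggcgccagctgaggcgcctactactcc
Dusp1: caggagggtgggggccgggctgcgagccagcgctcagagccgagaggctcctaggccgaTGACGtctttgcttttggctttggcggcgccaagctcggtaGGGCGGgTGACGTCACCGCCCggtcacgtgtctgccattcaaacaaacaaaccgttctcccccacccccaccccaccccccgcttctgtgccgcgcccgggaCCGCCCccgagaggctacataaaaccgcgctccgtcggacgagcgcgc
Jun: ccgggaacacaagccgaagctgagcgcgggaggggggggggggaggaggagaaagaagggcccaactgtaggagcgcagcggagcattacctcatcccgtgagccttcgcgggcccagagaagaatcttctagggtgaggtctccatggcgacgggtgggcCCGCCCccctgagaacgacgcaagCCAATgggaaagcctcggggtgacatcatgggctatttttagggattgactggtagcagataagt
The half-site TGACG, which lies inside the full element, occurred 2 times in the Fos window, 3 times in the Dusp1 window and 0 times in the Jun window, and 17.8% of all 32851 promoter windows of this length held it. The full element TGACGTCA occurred in the Dusp1 window, with its first base 143 bases before the start, and in 1.55% of all windows. It reads the same on both strands, and the Dusp1 half-site matches at 143 and 140 bases both lie in it. Of the 8 members with an entry in the promoter table, 5 held the half-site and 1 the full element. Besides Fos and Dusp1, the half-site was in the windows of Fosb, Junb and Klf2. It thus did not follow how the members differed between the libraries. The AP-1 element TGANTCA was in 0 of the 8 windows and in 6.75% of all. TATAAA was in the Fos window, 33 bases before the start, and in 12.4% of all. These matches describe letters in a window and do not show binding.

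Over all kept cells, Fos, Fosb, Jun and Dusp1 stood past 2-fold below control in the library labelled Utx-deleted, whereas the other 6 members differed by under 1.5-fold. With hashtag 1 alone in both libraries, Dusp1 was 3.08-fold lower, whereas Fos (1.71-fold lower), Fosb (1.62-fold) and Jun (1.27-fold) were within 2-fold, and 5.37% of genes were past 2-fold lower. The 4 of 10 members compare with 5.36% of the 13558 genes with at least 100 UMIs, and 0 members were 2-fold higher, against 1.39% of genes. The median log2 ratio of all tested genes was -0.11, and TMM scaling (trimmed mean of M values) gave a shift of -0.12, so a member near that value did not stand apart from other genes. Under TMM scaling Jun was within 2-fold, at -0.97, and the other 3 stayed past it. The hashtag values did not overlap for 6 of the 10 members, which were lower for both hashtags of the library labelled Utx-deleted, but 43.7% of genes met the same condition.

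Fos encodes the FOS subunit of AP-1, which needs a JUN partner to bind DNA. It had 2023 UMIs in the control library (18.7 CPM, with 14.4 and 23.3 CPM for hashtags 1 and 2) and 792 UMIs in the other (6.92 CPM, with 8.40 and 6.18 CPM). Both control values lay above both values of the library labelled Utx-deleted, and the log2 ratio was -1.43 (interval -1.55 to -1.31). Dusp1 encodes a nuclear phosphatase that switches MAP kinases off and is itself induced by them. It went from 11.99 CPM in the control library (9.70 and 14.7 CPM by hashtag) to 3.07 CPM in the other (3.13 and 3.22 CPM), a log2 ratio of -1.96 (interval -2.14 to -1.79). Jun encodes the c-JUN subunit and had 22.2 CPM in the control library (15.3 and 30.04 CPM by hashtag) and 10.4 CPM in the other (12.03 and 9.44 CPM), a log2 ratio of -1.10 (interval -1.20 to -0.999). Fosb, a close relative of Fos, was counted 251 times in control cells (1.64 and 3.13 CPM by hashtag) and 110 times in the others (1.0 and 1.04 CPM), a log2 ratio of -1.26 (interval -1.61 to -0.94). The log2 ratios of the remaining members were -0.42 for Jund, -0.25 for Ier2, -0.17 for Klf2, -0.14 for Junb, -0.09 for Egr1 and -0.02 for Klf6. The interval of Egr1 ran from -0.44 to 0.26 and that of Klf6 from -0.06 to 0.01, so both included 0. Gate shares differ between the libraries, with the stem-cell gate at 3.77% of kept control cells and 0.819% of kept cells in the other, so these sums mix level and cell make-up. Values within a gate do not mix gates, but the cells of a gate can still differ between the libraries. In the stem-cell gate the CD48 tag had a median of 689 UMIs per cell in the control library and 58 in the other. The Sca1 tag had 27 and 10 there. In the Elane gate the CD48 medians were 924 and 585. The part of this difference in the stem-cell values of members was not tested.

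Within the 7 gates, Fos and Dusp1 differed most in late neutrophils. Of the 70 member-by-gate values, 46 had at least 100 UMIs. Of these, 39 were lower in the library labelled Utx-deleted than in control, beside 54.3% of the values of all genes with that many UMIs in the same gates. Among them, 5 were past 2-fold lower and 0 were past 2-fold higher. The 5 values were Fos and Dusp1 in the late-neutrophil gate and Jun in the stem-cell, post-mitotic and monocyte-progenitor gates. Of all genes with at least 100 UMIs, 2.81% in the stem-cell gate, 1.46% in the Elane gate, 1.51% in the Fcnb-high gate and 2.19% in the cycling gate were past 2-fold lower. The share was 2.51% in the post-mitotic gate, 3.28% in the late-neutrophil gate and 1.57% in the monocyte-progenitor gate. Past 2-fold higher were 0.839%, 0.835%, 0.332%, 2.07%, 1.3%, 1.35% and 0.833% of genes in the same order of gates.

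**Figure D1:**
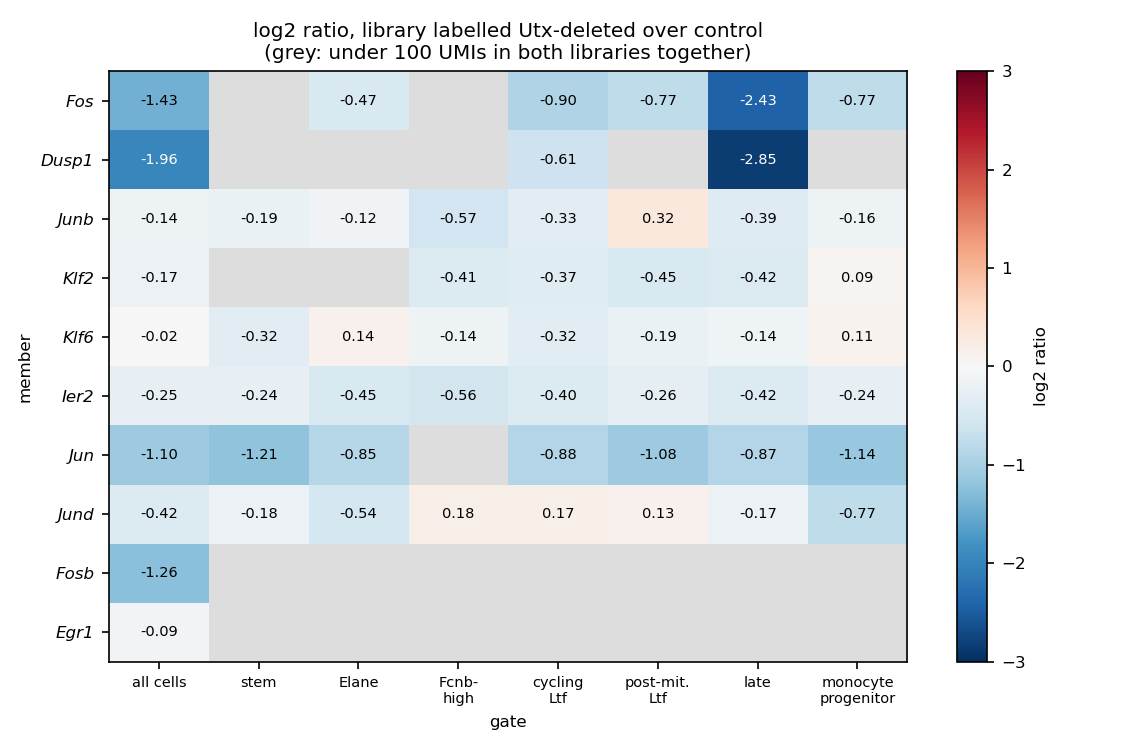
Log2 ratio of each member (rows) between the library labelled Utx-deleted and the control library, over all kept cells and in 7 gates (columns). Grey cells had under 100 UMIs over both libraries. The darkest cells are Fos (-2.43) and Dusp1 (-2.85) in the late-neutrophil gate, and Jun is the member that lies between -0.85 and -1.21 in every gate where it had enough UMIs.

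Late neutrophils were the main site of Fos and Dusp1 in the control library. Of the control library's Fos UMIs, 57.6% lay in the late-neutrophil gate, and of its Dusp1 UMIs 52.7%, in a gate that held 19.4% of kept cells. In that gate Fos stood at 132 CPM in the control library, with 122 and 141 CPM in hashtags 1 and 2. In the library labelled Utx-deleted it stood at 24.5 CPM, with 29.2 and 19.97 CPM. The hashtags differed 1.16-fold in the control library and 1.46-fold in the other, and the libraries did not overlap. The log2 ratio was -2.43 (interval -2.63 to -2.24), a 5.38-fold lower level.

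Dusp1 had the same form. It stood at 77.6 CPM in control late neutrophils (67.9 and 86.5 CPM by hashtag) and at 10.7 CPM in those of the library labelled Utx-deleted (11.5 and 11.1 CPM), a log2 ratio of -2.85 (interval -3.15 to -2.58) or 7.22-fold. Junb, the AP-1 subunit that often opposes c-JUN, stood at 47.3 CPM in control late neutrophils (41.2 and 52.4 CPM) and 36.1 CPM in the other library (39.1 and 33.5 CPM). Its log2 ratio was -0.39 (interval -0.59 to -0.19), far smaller than those of Fos and Dusp1. Both of its control hashtag values were above both of the other library. Jund, an AP-1 subunit that most cells express without a stimulus, stood at 90.9 and 80.7 CPM, and its hashtag values overlapped, with 81.9 and 98.1 CPM in the control library and 81.9 and 84.0 CPM in the other. In this gate 7 of the 8 members with enough UMIs had hashtag values that were all lower in the library labelled Utx-deleted, against 35.4% of genes.

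The share of cells in which Fos was detected moved with its level. Fos UMIs were found in 38.4% of control late neutrophils and 14.2% of those in the other library, at median depths of 6171 and 7419.5 UMIs. After thinning each cell to 2000 UMIs the shares were 20.4% (interval 18.2 to 22.6%) and 4.48% (interval 3.46 to 5.68%). Dusp1 was found in 28.0% and 7.27% of these cells, and in 14.7% and 2.45% after thinning. No gate is known to lack these genes. The thinned share of post-mitotic cells with a Fos UMI was 1.32% in the control library and 0.919% in the other, and shares of that size cannot be told from free RNA. The late gate was deeper in the library with the lower share. The top 5% of control late neutrophils held 36.5% of their Fos UMIs, with at most 16 UMIs in a cell, and the top 5% in the other library held 52.5%, with at most 5.

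**Figure D2:**
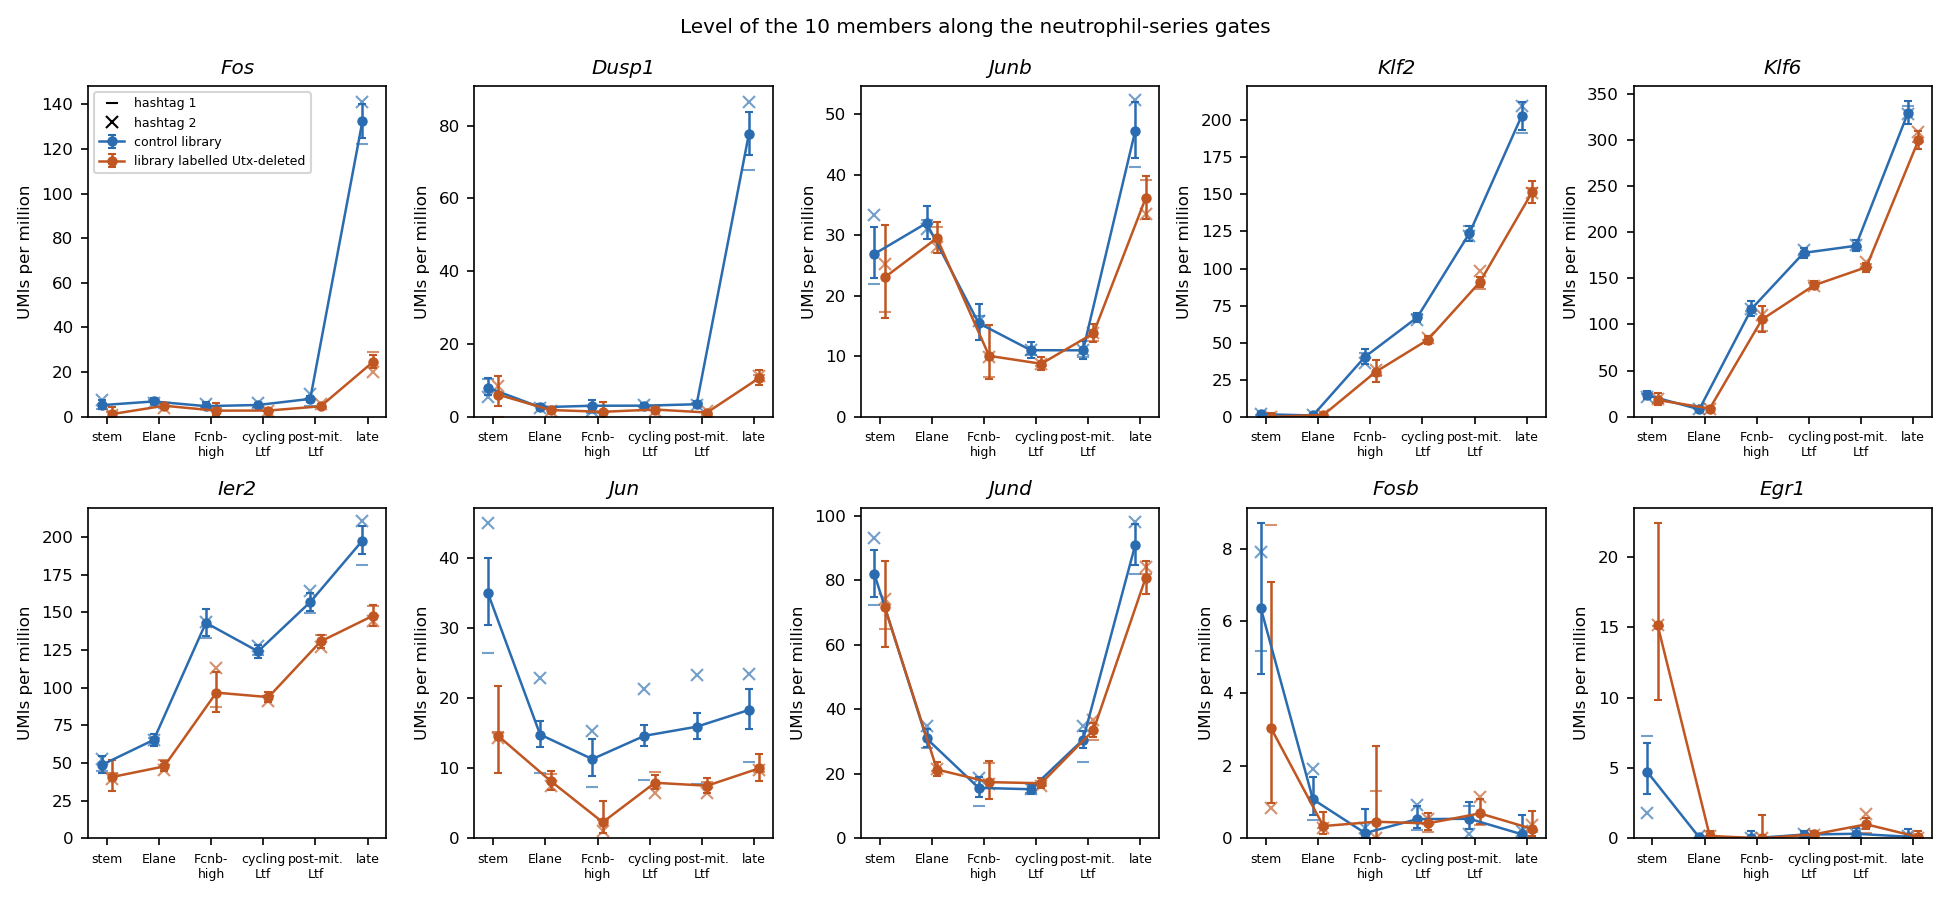
Level of each member in CPM (y axis, linear from 0, a different scale in each panel) along 6 gates of the neutrophil series (x axis) in the control library (blue) and the library labelled Utx-deleted (orange). Circles and lines are the sum over cells with its 95% Poisson interval, dashes and crosses the cells of hashtags 1 and 2. Fos and Dusp1 stand apart in control late neutrophils at 132 and 77.6 CPM, Klf2, Klf6 and Ier2 are highest in the late gate in both libraries, and Fosb and Egr1 are highest in the stem-cell gate.

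From post-mitotic to late cells, Fos went from 8.03 to 132 CPM in the control library, a log2 ratio of 4.03 (interval 3.80 to 4.30). In the library labelled Utx-deleted it went from 4.70 to 24.5 CPM, a log2 ratio of 2.37 (interval 2.07 to 2.70). Dusp1 went from 3.45 to 77.6 CPM (4.47) in the control library and from 1.19 to 10.7 CPM (3.14) in the other. Fos, Dusp1, Junb and Jund were past 2-fold higher in late than in post-mitotic cells in both libraries, which is 4 members where 5.32% of genes in the control library and 4.19% in the other passed. Junb had log2 ratios of 2.10 and 1.39 and Jund of 1.57 and 1.27 in the control library and the other. The step was thus present in both libraries, and its value was smaller for all 4 members in the library labelled Utx-deleted, a difference that was not tested.

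The late-neutrophil gate spans a range of maturity, so it was divided by the summed UMIs of Retnlg, Mmp8 and Cxcr2 per 10000, a division chosen after the data were seen. In the control library Fos stood at 27.1 CPM in cells with 30 to 60 such UMIs, at 63.5 CPM with 60 to 120, at 174 CPM with 120 to 240 and at 341 CPM from 240. The same bins of the library labelled Utx-deleted gave 6.93, 14.6, 31.1 and 55.4 CPM. Fos thus climbed with the late markers in both libraries. Summed over hashtags, the highest bin of the library labelled Utx-deleted was below the second control bin. By hashtag the 2 bins overlapped, at 71.4 and 36.6 CPM against 60.4 and 67.0 CPM.

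The log2 ratio of Fos between the libraries was -1.93, -2.10, -2.47 and -2.62 from the lowest to the highest bin. Dusp1 climbed from 16.4 to 256 CPM in the control library and from 3.46 to 27.7 CPM in the other, with log2 ratios of -2.16, -2.62, -2.71 and -3.19. The lowest bin of Fos and the 2 lowest of Dusp1 had under 100 UMIs over both libraries, and the other ratios of both genes were past 2-fold. From the lowest bin up, 1.84%, 2.68%, 3.32% and 3.07% of genes were past 2-fold lower. In the highest bin the control hashtags had 329 and 348 CPM of Fos, and those of the other library 71.4 and 36.6 CPM. Junb climbed too, from 18.4 to 122 CPM and from 23.0 to 80.6 CPM, but its log2 ratio went from 0.31 (interval -0.26 to 0.93) in the lowest bin to -0.60 (interval -0.92 to -0.27) in the highest. Jun did not climb, with 15.9 and 17.2 CPM in the lowest and highest control bin and 17.0 and 5.93 CPM in the other library.

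**Figure D3:**
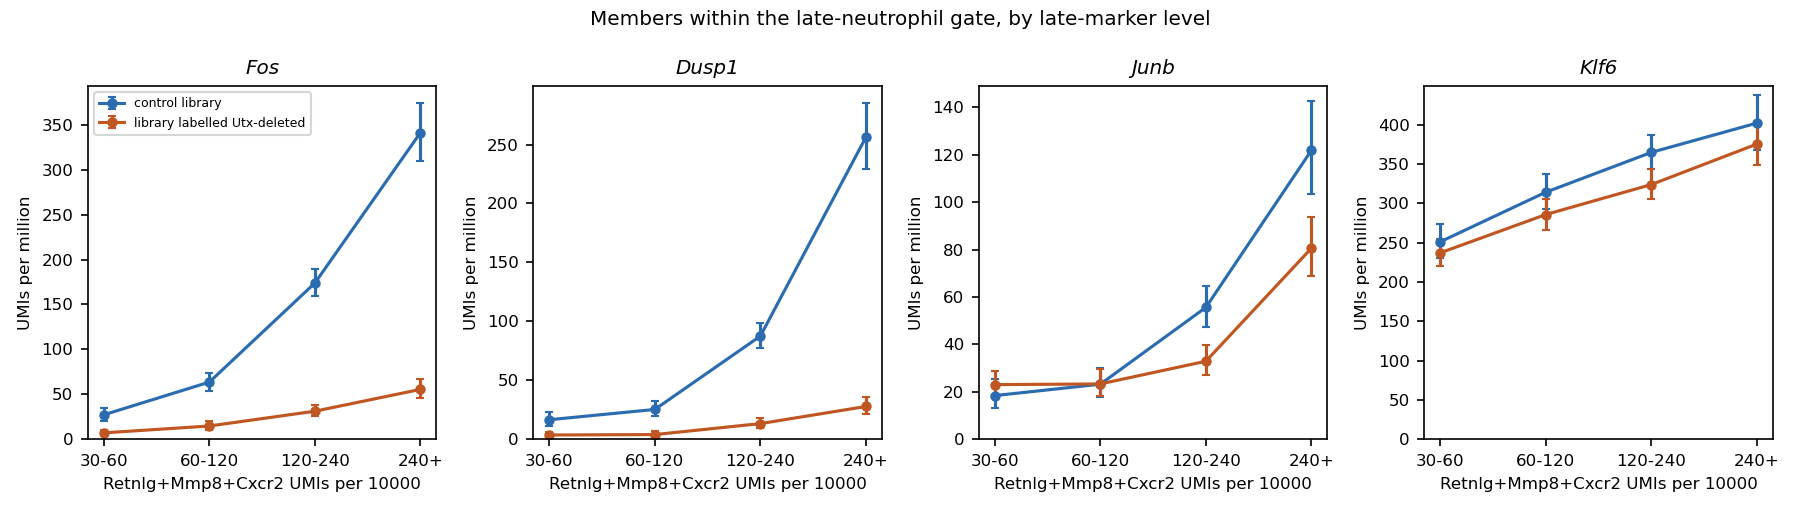
Fos, Dusp1, Junb and Klf6 in CPM (y axis, linear from 0) within the late-neutrophil gate, by the summed UMIs of Retnlg, Mmp8 and Cxcr2 per 10000 (x axis, 4 bins), in the control library (blue) and the library labelled Utx-deleted (orange). Points are sums over cells with 95% Poisson intervals. Fos reaches 341 CPM and Dusp1 256 CPM in the highest control bin and 55.4 and 27.7 CPM in the other library, while the log2 ratios of Klf6 lie between -0.17 and -0.08.

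In the late-neutrophil gate, the late markers summed to 13899 CPM in the control library and 14623 CPM in the other, and the median mitochondrial share was 0.322% and 0.359%. The azurophil genes Elane, Prtn3 and Mpo, which mark earlier cells, summed to 233 and 382 CPM and were thus higher where Fos was lower. The 3 monocyte markers summed to 7.38 and 20.7 CPM and the 2 dendritic markers to 2.04 and 11.8 CPM, in the same direction. In the library labelled Utx-deleted the dendritic markers came to 0.745 CPM in hashtag 1 and 24.7 CPM in hashtag 2, and the monocyte markers to 7.82 and 28.8 CPM. Siglech was at 0 in both libraries. The macrophage genes C1qa and C1qb summed to 1.59 and 0.438 CPM, 3 B-lineage markers to 6.02 and 1.23 CPM, the T and NK genes Cd3e and Nkg7 to 12.04 and 7.53 CPM, with Cd3e at 0 in the control library, and 3 basophil markers to 3.29 and 3.41 CPM. The part of earlier and other cells in the Fos values was not tested. In sums over a gate, fewer cells with Fos and less Fos per cell cannot be told apart beyond the shares given.

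Members were also counted in the same cells. In control late neutrophils thinned to 2000 UMIs, 32 of 1331 cells (2.40%, interval 1.65 to 3.38%) had UMIs of at least 3 of Fos, Jun, Egr1, Ier2 and Dusp1. In the library labelled Utx-deleted 3 of 1430 cells did (0.210%, interval 0.043 to 0.612%). At least 2 of the 5 genes were counted in 15.9% and 2.38% of late neutrophils, and in 1.43% and 0.585% of post-mitotic cells. Such cells were thus most frequent among control late neutrophils. The other control gates with at least 50 cells had between 0 and 0.380% of cells with 3 or more. These shares rise with the share of cells that held each single gene. For late neutrophils, control first, the thinned shares were 20.4% and 4.48% for Fos and 14.7% and 2.45% for Dusp1. Ier2 had 33.4% and 27.9%. No expected share was computed from the single genes, so these counts are not a result apart from those levels.

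For single pairs, 69 control late neutrophils had both Fos and Dusp1, 1.74 times the 39.7 cells that the product of the shares gives (interval 1.35 to 2.20). Junb with Dusp1 reached 2.25 times (interval 1.59 to 3.11), Junb with Jund 2.03 times (interval 1.41 to 2.82) and Fos with Junb 1.53 times (interval 1.07 to 2.13). Fos with Klf6 reached 1.12 times and Klf2 with Klf6 1.13 times, and both of those intervals included 1. Fos with Jun was at 0.614 times, from 5 cells, with an interval from 0.199 to 1.43. Fos, Dusp1 and Junb each climbed with the late markers, and the part of maturity within the gate in these pairs was not tested. Junb with Jund was at 1.67 times (interval 1.07 to 2.48) in the library labelled Utx-deleted. Fos with Jund was at 1.46 times (interval 1.12 to 1.88) in the control library and at 0.790 times (interval 0.318 to 1.63) in the other. Fos with Klf2 was at 1.18 times (interval 0.966 to 1.44) and 0.591 times (interval 0.283 to 1.09). The intervals of each pair overlapped between the libraries, and the differences were not tested.

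Among the gates of the neutrophil series, Klf2, Klf6 and Ier2 were highest in late neutrophils in both libraries. They stayed within 2-fold between the libraries in each gate with at least 100 UMIs. Each was lower in late neutrophils of the library labelled Utx-deleted. Klf2 encodes a zinc-finger factor that holds myeloid cells and lymphocytes in a resting state. It had 1.795 CPM in the control stem-cell gate, 0.898 in the Elane gate, 40.5 in the Fcnb-high gate, 67.1 in the cycling gate, 124 in the post-mitotic gate and 203 in late neutrophils. The library labelled Utx-deleted had 0, 1.24, 30.2, 51.9, 90.9 and 151 CPM in the same gates. The order of the gates from Elane on was the same in both libraries.

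At the low end, Klf2 had 0 UMIs in the 59 stem-gate cells of the library labelled Utx-deleted against 11 UMIs in the control library, and a count of 0 there allows up to 1.82 CPM (3 counts). Its log2 ratio between libraries was -0.42 in late neutrophils (interval -0.52 to -0.33), where the hashtags had 192 and 209 CPM in the control library and 155 and 151 CPM in the other. Klf6, a related factor that many tissues induce on injury, went from 8.14 CPM in the Elane gate to 329 CPM in late neutrophils of the control library and from 8.97 to 299 CPM in the other. Its largest proportional step in the control library was from the Elane gate to the Fcnb-high gate, at 117 CPM. Its log2 ratio in late neutrophils was -0.14 (interval -0.21 to -0.07).

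Ier2, an immediate early gene whose product acts in the nucleus, stood at 48.6 CPM in the control stem-cell gate and 198 CPM in late neutrophils, and at 40.7 and 148 CPM in the other library. Compared with control, Ier2 had log2 ratios below 0 in all 7 gates, from -0.56 in the Fcnb-high gate to -0.24 in the monocyte-progenitor and stem-cell gates, and 0 of them passed 2-fold. The stem-cell interval, from -0.66 to 0.13, included 0. Over the neutrophil series of the control library, all 9 members with at least 100 UMIs differed 2-fold or more between their highest and lowest gate, but so did 89% of genes. By that range Klf2 stood at percentile 97.6 of genes, Fos at 78.8, Ier2 at 38.1 and Jun at 36.5.

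Jun differed between the libraries in a way that followed a hashtag more than a stage. In the control library, Jun was past 2-fold higher in the cells of hashtag 2 than in those of hashtag 1 in the Elane, cycling, post-mitotic and late-neutrophil gates, where 0.0757%, 0.115%, 0.143% and 0.0888% of genes were. In the Elane gate the values were 9.36 and 22.8 CPM for control hashtags 1 and 2, and 9.11 and 7.42 CPM for those of the library labelled Utx-deleted. In the cycling gate they were 8.27 and 21.2 CPM, and 9.51 and 6.40 CPM. In each of these gates, control hashtag 2 was the group that stood apart.

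In the post-mitotic gate the values were 7.74 and 23.2 CPM in the control library and 7.96 and 6.47 CPM in the other, so control hashtag 1 lay within the range of the library labelled Utx-deleted. In late neutrophils they were 10.8 and 23.4 CPM, and 9.50 and 9.80 CPM. With the control cells of hashtag 1 alone, an alternative added after the data were seen, the log2 ratio of Jun to all cells of the library labelled Utx-deleted was -0.20, -0.07, -0.06 and -0.14 in the Elane, cycling, post-mitotic and late-neutrophil gates. With those of hashtag 2 alone it was -1.48, -1.42, -1.63 and -1.23. The Jun difference in these gates thus rested on control hashtag 2. In the stem-cell and monocyte-progenitor gates it was below 0 with either hashtag, at -0.82 and -0.93 for hashtag 1, both within 2-fold, and -1.58 and -1.34 for hashtag 2. With hashtag 1 alone in both libraries it was -0.63 (interval -2.16 to 0.30, from under 100 UMIs) and -0.46 (interval -0.82 to -0.10).

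The same contrast left Fos and Dusp1 in late neutrophils nearly as they were, at -2.31 and -2.66 against control hashtag 1 and -2.52 and -3.01 against control hashtag 2. In the post-mitotic gate, Fos did follow the hashtag, with 4.82 and 10.4 CPM in the control library and 4.31 and 5.68 CPM in the other. Its log2 ratio there was -0.06 against control hashtag 1 alone and -1.14 against hashtag 2 alone. Jun in those 4 gates and Fos in the post-mitotic gate were past 2-fold between the control hashtags. In the stem-cell, Fcnb-high and monocyte-progenitor gates of the control library 0 members with at least 100 UMIs were, where 0.193%, 0.033% and 0.19% of genes differed 2-fold either way. In the library labelled Utx-deleted 0 members with that many UMIs did in the Elane, cycling, post-mitotic, late-neutrophil and monocyte-progenitor gates, where 0.172%, 0.992%, 0.372%, 0.328% and 0.26% of genes did.

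Hspa1a and Hspa1b, the heat-inducible HSP70 genes, were highest in the same hashtag. In the Elane gate Hspa1a stood at 9.56 and 39.2 CPM in control hashtags 1 and 2 and at 8.69 and 3.56 CPM in those of the library labelled Utx-deleted, and Hspa1b at 18.6 and 49.8 CPM and at 18.1 and 5.25 CPM. In the monocyte-progenitor gate Hspa1b stood at 27.9 and 72.0 CPM and at 19.2 and 10.1 CPM. In late neutrophils, where Fos and Dusp1 were highest, the control library had 6 UMIs of Hspa1a and 4 of Hspa1b, and the other 0 and 3. Jun differed past 2-fold between the control hashtags in the Elane gate and also in the cycling, post-mitotic and late gates, where each HSP70 gene stood under 4 CPM in every hashtag. The part of handling or stress before capture in either pattern was not tested.

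**Figure D4:**
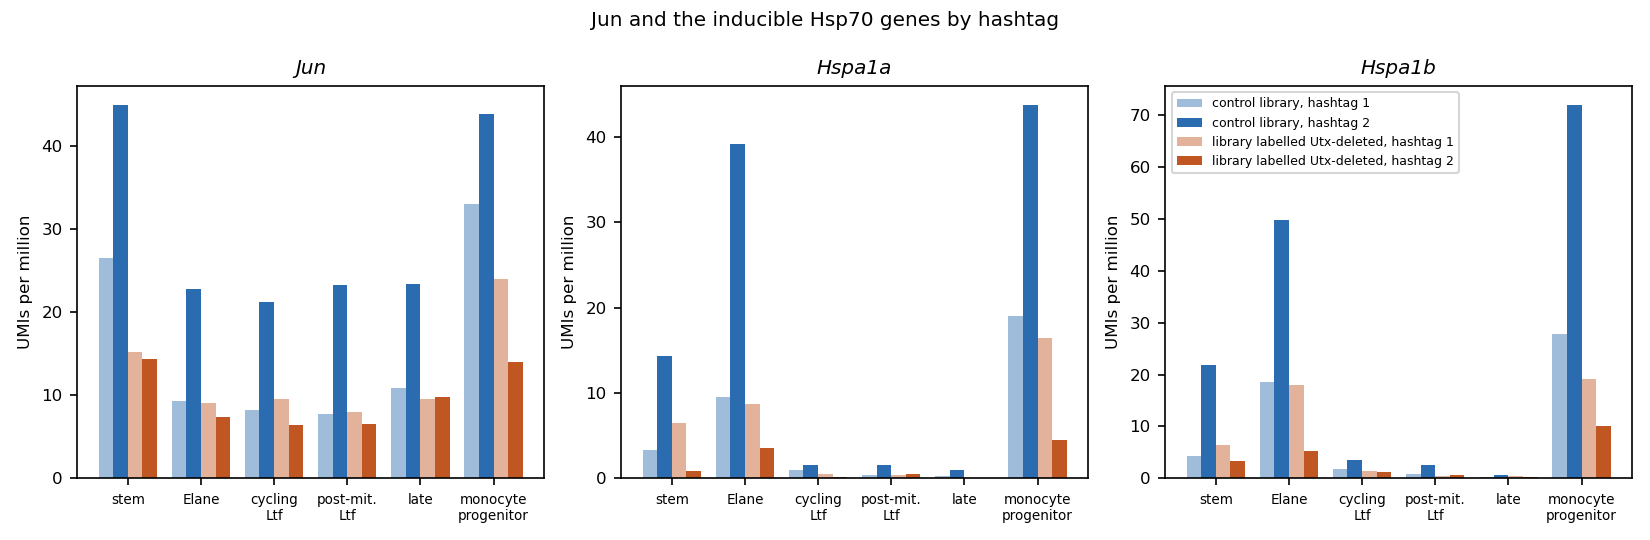
Jun, Hspa1a and Hspa1b in CPM (bars from 0) in 6 gates, for hashtags 1 (pale) and 2 (dark) of the control library (blue) and of the library labelled Utx-deleted (orange). The dark blue bar is the highest of the 4 in every gate shown for Jun, at 23.4 CPM in late neutrophils, and the HSP70 genes are near 0 in the Ltf and late gates.

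Jun was also a gene of early and non-neutrophil cells. It stood at 34.9 CPM in the control stem-cell gate and 38.4 CPM in monocyte progenitors, against 14.6 and 17.4 CPM in the other library, and at 59.7 and 49.7 CPM in B-lineage cells, from 81 and 34 cells. Jund was high at both ends of the control series, with 81.9 CPM in the stem-cell gate, 15.2 CPM in the cycling gate and 90.9 CPM in late neutrophils, and the other library gave 71.6, 17.1 and 80.7 CPM. In monocyte progenitors Jund stood at 36.7 CPM in the control library (26.4 and 46.7 CPM by hashtag) and 21.5 CPM in the other (23.7 and 20.5 CPM), a log2 ratio of -0.77. B-lineage and dendritic cells of the control library had 207 and 208 CPM of Jund, from 81 and 25 cells.

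Junb was also high at both ends. It stood at 32.03 CPM in the control Elane gate, 11.01 CPM in the cycling gate, 10.997 CPM in the post-mitotic gate and 47.3 CPM in late neutrophils, and at 29.6, 8.77, 13.8 and 36.1 CPM in the other library. It was the member with the highest ratio among the 46, 0.32 in the post-mitotic gate (interval 0.08 to 0.58), where its hashtags had 9.90 and 11.01 CPM in the control library and 12.5 and 13.8 CPM in the other. This was the 1 value of the 46 whose interval lay above 0, and 31 lay below 0. Over all genes of the same gates, 15.7% of values had an interval above 0 and 24.1% one below 0. In dendritic cells Junb stood at 130 and 132 CPM, from 25 and 33 cells.

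Fosb and Egr1 were too sparse for a ratio in any single gate. Fosb had 39 UMIs in the control stem-cell gate (6.36 CPM) and 5 in the other library (3.04 CPM), and 1 and 3 UMIs in the late-neutrophil gates of the libraries. In monocyte progenitors it had 42 and 21 UMIs, or 5.15 and 1.29 CPM. Fosb was therefore close to 0 in the cells richest in Fos. Egr1, a zinc-finger factor that keeps stem cells quiescent, had 29 UMIs in the control stem-cell gate (4.73 CPM, interval 3.17 to 6.80) and 25 in the other library (15.2 CPM, interval 9.82 to 22.4). The hashtags gave 7.29 and 1.797 CPM in the control library and 15.1 and 15.2 CPM in hashtags 1 and 2 of the library labelled Utx-deleted. In the Car1 gate of erythroid progenitors it had 9.41 and 33.4 CPM, from 110 and 16 cells. Egr1 had 1 UMI in the late-neutrophil gate of each library. In the Pf4 gate it was lower in the library labelled Utx-deleted, at 5.75 and 3.19 CPM, with intervals that overlapped. All of these sums are under 100 UMIs. After thinning to 2000 UMIs, 2 of 263 control cells of the stem-cell gate (exact interval 0.0922% to 2.72%) and 0 of 59 cells of the other library (up to 6.06%) had a UMI of Egr1.

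Other genes of these families were counted beside the members. Of 12 further AP-1 genes, 9 had at least 100 UMIs over all cells, with 1 past 2-fold lower and 0 higher. Of all genes, 5.36% were past 2-fold lower and 1.39% higher, from which 1 of 9 cannot be told. The median log2 ratio of the 9 was -0.28, beside -0.11 for all genes. Maf, a large MAF factor of macrophages, had the lowest ratio at -1.09. Batf and Mafg were the highest, at 0.14 and 0.07. Of 27 further immediate early genes, 24 had enough UMIs, with 2 past 2-fold lower, 0 higher and a median of -0.36. Beside the 5.36% of all genes past 2-fold lower, 2 of 24 cannot be told from the background. Those 2 were Dusp5 (-1.05), a phosphatase for ERK, and Zfp36l1 (-1.04), which promotes decay of mRNAs, and the highest were Klf4 (0.77) and Rhob (0.38). In late neutrophils 0 of the 15 genes of that list with enough UMIs passed 2-fold, with a median of -0.26, beside 4.63% of all genes past 2-fold in either direction there and a median of -0.02. Singled out after their values were seen, Zfp36, whose product destabilises cytokine mRNAs, stood there at 328 CPM in the control library (251 and 383 CPM by hashtag) and 168 CPM in the other (176 and 162 CPM), and Btg2, an antiproliferative gene, at 273 and 165 CPM.

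Of 14 heat shock genes 12 had enough UMIs, with Hspa1a (-1.70) and Hspa1b (-1.56) past 2-fold lower and a median of -0.29. Of all genes, 6.75% were past 2-fold in either direction over all cells, and their median was -0.11. Bag3, a partner of HSP70, was the highest at 0.58, and it was the list's gene past 2-fold higher in the cycling gate (1.14 and 4.53 CPM) and the post-mitotic gate (2.16 and 6.58 CPM). Hspa5, the HSP70 of the endoplasmic reticulum, stood at -0.06. Of 14 genes for serum response factor partners and MAP kinases, 0 passed 2-fold in either direction over all cells. Their median was -0.12, near that of all genes, and 6.75% of all genes passed. Elk3, a partner of serum response factor, had the lowest ratio at -0.91, with 34.8 and 18.5 CPM over all cells and 10.9 and 4.55 CPM in late neutrophils. Mapk9, which encodes the kinase JNK2, stood at -0.33, Elk1 at 0.04 and Klf13 at 0.23.

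The genes most like Fos were sought over 29 sums of at least 50 cells (gate by library by hashtag), by Pearson's r of log2(CPM + 10) among 9817 genes with at least 1000 UMIs. The sums share libraries and gates, so r is a description. The 5 closest were Mfsd14a (0.90), Tarm1 (0.90), Sfxn5 (0.89), Gm27211 (0.88) and Hopx (0.88), and Dusp1 was at rank 7 with 0.88. Tarm1, an activating receptor of myeloid cells, stood at 67.7 CPM in control late neutrophils and 22.7 CPM in the other library. Junb was at rank 298 with 0.63, and Jun at rank 3049 with 0.00061. Fos and Fosb had an r of -0.17, and Fosb and Jun one of 0.88.

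The genes most like Klf2 were Lats2, AB124611, March1, Mirt1 and Pik3r5, each with r of 0.98. Klf6 was at rank 25 with 0.97 and Ier2 at rank 323 with 0.92, and Fos at rank 2021 with 0.46. Jun and Fosb had r = 0.88 with each other and negative values with Klf2, at -0.47 and -0.51. Across these sums Fos went with Dusp1, Klf2 with Klf6 and Ier2, and Jun with Fosb, while the highest r of Junb (with Fos), Jund (with Jun) and Egr1 (with Fosb) was 0.63, 0.67 and 0.69.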

How the data were processed

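The 2 deposited libraries hold raw UMI counts, 1 value for each cell barcode and each of 32285 genes or 15 antibody tags. They were made with Cell Ranger 7.1.0 on mm10, per the submitters' processing notes, and the authors' cell calling is not given in the sources used here. The control library held 7827 barcodes with 122130256 UMIs of genes. The other held 7883 with 129736034.

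Counts were processed with Python 3.11.15, scanpy 1.11.5 and scipy 1.17.1. Barcodes with at least 500 genes and under 10% mitochondrial UMIs were kept, which left out 349 and 214. Scrublet's automatic threshold marked 0.0134% and 0% and had not worked, so the top 6% of scores were left out (467 and 463 cells). A hashtag was called at 100 UMIs and 5 times the other. Hashtags 1 and 2 had 3253 and 3506 control cells and 3163 and 3553 cells of the other library, and 204 and 451 cells carried both.

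Gates used UMIs per 10000 of a cell, with at least 100 of Ltf, Camp and Ngp for the granule gates and under 30 for the early ones, 30 for the late markers, 4 of Mki67 and Top2a for cycling cells, 60 of Elane, Prtn3 and Mpo, 4 of Hlf and Mecom, and 8 of the monocyte markers. UMIs were summed over cells, and the log2 ratio had 1 UMI added to each sum. Genes with at least 100 UMIs in both groups together were counted. Thinning to 2000 UMIs left out 165 and 79 cells. Ratios, intervals and thresholds were tested on simulated counts. Coordinates are those of GENCODE M21, which holds 99.6% of the gene IDs, and it is not known to be the annotation the authors used. Promoters are from RefSeq.

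All 10 members are named, with the 2 highest and 2 lowest ratios of each of 4 context lists (other AP-1 genes, other immediate early genes, heat shock genes, and serum response and MAP kinase genes) and the 5 genes most like Fos and Klf2. The value of 1 gene that this rule names is not reported here. The members and lists were chosen with earlier results of these data known. Alternatives were a stricter filter, no doublet removal, other totals and scaling, thinning, other gate thresholds, UMI minimums and folds, single hashtags and equal gate weights.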

Additional observations from a re-analysis of the deposited data

Results flagged for a closer look

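Junb differed in direction between gates, beyond the hashtag spread and with counting intervals that did not include 0. Its log2 ratio, library labelled Utx-deleted over control, was 0.32 in the post-mitotic Ltf gate, where both hashtags of the library labelled Utx-deleted were above both control hashtags. It was -0.33 in the cycling Ltf gate and -0.39 in the late-neutrophil gate, where both were below. Jund also differed in direction by hashtag. It was higher in the cycling gate, at 13.9 and 15.2 CPM in the control hashtags and 16.2 CPM in each of the other 2, though the interval of its log2 ratio, -0.02 to 0.36, included 0. It was lower in the Elane gate (log2 ratio -0.54) and the monocyte-progenitor gate (-0.77). These differences between gates were not tested. The share of all genes that change direction in this way was not computed, so neither gene is shown to be unusual. In the late-neutrophil gate alone, 35.4% of genes had both hashtags lower in the library labelled Utx-deleted.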

How the results depend on the processing

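Of 108 alternative values of members over all cells, 100 kept their sign, and of 497 within gates 478 did, while 48 and 427 lay within the counting interval of the reported value. Among values past 2-fold, 43 of 43 and 62 of 63 kept theirs. The exception was Jun in the post-mitotic gate, at 0.033 with hashtag 1 alone in both libraries. The cause was not tested. Members past 2-fold over all cells numbered 2 in place of 4 after thinning to 2000 UMIs, where fewer UMIs were left, 3 with TMM scaling (without Jun), 5 with the same gate weights in both libraries, 1 (Dusp1) with hashtag 1 alone and 2 with control hashtag 1 against all cells of the other library. Of all genes, 3.56% were past 2-fold in either direction after thinning and 6.22% with TMM. With those hashtags the share was 6.37% and 6.46%, and as reported it was 6.75%. For the same gate weights the share of all genes was not computed, so the count of 5 cannot be set against it. Values within gates past 2-fold numbered 2 in place of 5 after thinning, 13 with a minimum of 20 UMIs, 13 with a 1.5-fold threshold, 2 with hashtag 1 alone, 10 with hashtag 2 alone, and 2 and 11 with control hashtags 1 and 2 against all cells of the other library. The values counted were 21, 62, 46, 31, 34, 43 and 44 in that order, in place of 46. The share of all genes' values was 1.8%, 7.12%, 9.34%, 2.36%, 2.86%, 3.12% and 3.13%, in place of 3.27%. They numbered 7 of 42 with gate thresholds doubled, 6 of 47 without doublet removal and 6 of 46 without barcodes that carried both hashtags, beside 3.12%, 3.22% and 3.12%. Members past 2-fold between hashtags numbered 1 in place of 2 after thinning, 5 with the minimum of 20 UMIs and 7 with the 1.5-fold threshold, beside 0.656%, 16.9% and 14.5% of genes in place of 2.63%. Co-detection of at least 3 genes in control late neutrophils was 8.37% at 4000 UMIs, beside 0.431% in the other library. No alternative was run for the context lists. No paired analysis was possible because each group has 1 library and the labels give no replicate numbers. Depth limits Fosb and Egr1, which have under 100 UMIs in each gate.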
